A study of Mus musculus with 2 samples.

Results

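The core planar cell polarity genes were examined in RNA-seq libraries of the NE4C line, immortal mouse neural stem cells cloned from the forebrain vesicles of embryos lacking p53. The genes were picked out by symbol, as well known conserved components of the pathway. They were Vangl1, Vangl2, Celsr1, Celsr2, Celsr3, Prickle1, Prickle2, Prickle3, Scrib and Ptk7. All 10 were found once each among the 16803 genes of the table, and all 10 had enough reads to be tested. One library came from NE4C in normal culture (control) and 1 from NE4C treated with homocysteine thiolactone (HTL), the cyclic thioester of homocysteine, which reacts with lysine side chains of proteins. The dose and duration of HTL for these libraries are not given in the sources used here. With 1 library in each condition there was no replicate check, so every interval and test given here covers counting error between these 2 libraries and not the difference between conditions. In bulk RNA, fewer cells with a transcript and less of it per cell cannot be told apart.

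Planar cell polarity is the alignment of cells within the plane of an epithelium. Its core proteins sort to opposite faces of each cell, with Vangl and Prickle on one face and Frizzled and Dishevelled on the other, and the Celsr cadherins join the faces of neighbouring cells. During neural tube closure the pathway drives convergent extension, in which the neural plate narrows and lengthens. Mouse embryos that lose Vangl2, Celsr1, Scrib or Ptk7 can fail to close the neural tube along most of its length (craniorachischisis). The study examined homocysteine in relation to neural tube defects. By RT-qPCR it also reported lower expression of genes related to planar cell polarity signalling in HTL-treated NE4C. Those measurements were not compared with the values here.

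The control library held 10350665 reads and the HTL treatment library 9102076, and the 10 most abundant genes took 9.17% and 9.07% of them. Of 10 neural stem cell markers, 9 reached an FPKM (fragments scaled to transcript length and to mapped reads) of 1 in control and 8 after HTL treatment. Nes was listed at an FPKM of 25.1 and 24.1 and Sox2 at 34.7 and 12.6, but Fabp7 had only 2 reads in each library. Of 4 pluripotency markers, Pou5f1 was listed at 1870 and 2114, and Nanog, which was lower after HTL treatment, at 23.77 and 14.75. Dppa3 had only 1 and 2 reads, and Zfp42 was not found by symbol. The summed FPKM of the neural stem cell markers was 210 in the control and 151 in the HTL treatment library, but 5 of them had a lower and 5 a higher FPKM after HTL treatment. The sum of 6 neuron markers was 37.4 and 51.8, where Tubb3 (16.3 and 24.8) and Stmn2 (15.7 and 23.2) made up most of it and 3 of the 6, Dcx, Map2 and Snap25, had a lower FPKM after HTL treatment. Their part in the results below was not tested. Of the markers of astrocytes, oligodendrocytes, mesenchyme, and endothelium and blood, at most 2 in any list reached an FPKM of 1.

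All gene positions are those of the NCBIM37 assembly (mm9). Prickle1 (gene ID 106042) lies on chromosome 15, 93329545 to 93426322, minus strand, and Prickle3 (gene ID 54630) on chromosome X, 7234386 to 7245312, plus strand. Their upstream sequences are shown because these genes had the lowest and the highest log2 ratio of the 10, and because Prickle1 has more than 1 annotated start. RefSeq promoters (table built on GRCm38.p6) were found for 7 of the 10 genes, with 11 starts in all, and none for Vangl1, Celsr1 and Scrib. The 250 bases before each start were matched exactly to a single place in NCBIM37. Capitals mark matches, on either strand, to the GC box GGGCGG, the E-box CACGTG, the amino acid response element TGATGNAAN, or CCAAT and CCACG, the ends of the endoplasmic reticulum stress response element. Matches to CCACG can overlap those to the E-box and the GC box.
Prickle1, distal start, chr15:93426334-93426583, minus strand: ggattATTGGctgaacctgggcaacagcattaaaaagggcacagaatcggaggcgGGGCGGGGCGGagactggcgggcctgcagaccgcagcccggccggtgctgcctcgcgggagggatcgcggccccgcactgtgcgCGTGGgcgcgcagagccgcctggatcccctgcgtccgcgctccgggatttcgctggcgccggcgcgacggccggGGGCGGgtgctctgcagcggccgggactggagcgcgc
Prickle1, internal start, chr15:93349952-93350201, minus strand: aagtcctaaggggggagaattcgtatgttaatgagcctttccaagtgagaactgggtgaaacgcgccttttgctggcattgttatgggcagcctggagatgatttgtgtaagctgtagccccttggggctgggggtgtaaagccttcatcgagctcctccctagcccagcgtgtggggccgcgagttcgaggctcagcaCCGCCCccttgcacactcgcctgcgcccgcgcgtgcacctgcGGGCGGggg
Prickle3, chrX:7234255-7234504, plus strand: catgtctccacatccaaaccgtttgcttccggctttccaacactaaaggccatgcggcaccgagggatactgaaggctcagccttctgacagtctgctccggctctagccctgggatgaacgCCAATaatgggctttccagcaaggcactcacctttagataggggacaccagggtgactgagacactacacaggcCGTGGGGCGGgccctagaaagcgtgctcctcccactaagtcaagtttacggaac
The window at the distal Prickle1 start had a GC content of 74% and 34 CpG dinucleotides, with 3 matches to GGGCGG and 1 each to CCAAT and CCACG. The internal start had 60.8%, 16 CpGs and 2 matches to GGGCGG. The Prickle3 window had 56% and 10 CpGs, with 1 match each to CCAAT, to the GC box and to CCACG. Over all 32851 promoter windows the median was 52.4% GC and 6 CpGs. GGGCGG was found in 9 of the 11 windows of the core genes and in 32.7% of all windows, CCAAT in 3 and 33.8%, and CCACG in 5 and 28.3%. CACGTG (6.02% of all windows) and TGATGNAAN (3.44%) were found in none of the 11. Such matches describe letters in these windows only.

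Prickle1 had the largest change among the 10 core genes and was the only one past both cutoffs used, a log2 ratio of 1 in either direction and an adjusted p no higher than 0.001. The call on Prickle1 held in the edgeR exact test with an assumed coefficient of biological variation between cultures of 0.1, and was lost at 0.2 (adjusted p = 0.0379). Vangl1 and Celsr2 were lower by more than 0.8 on the log2 scale, while Vangl2, Celsr1, Ptk7 and Prickle3 had log2 ratios between -0.094 and 0.22. Reads were compared with the library totals by a two-sided exact binomial test, adjusted over the 13442 genes tested. Past both cutoffs, 1 of the 10 genes was lower and 0 were higher, where 7.98% of all genes tested were lower and 2.81% higher. At the adjusted p alone, 5 of the 10 were lower (Prickle1, Vangl1, Celsr2, Prickle2 and Scrib) and 0 higher, beside 24.1% and 14.5% of all genes tested. Passing the adjusted p alone depends on depth, and all 10 had at least 111 reads in each library. Genes tested needed only 10 reads in both libraries together. With the assumed coefficient of 0.1, Prickle1 alone stayed past the adjusted p, which the edgeR exact test gave as 0.00297 for Vangl1, 0.00223 for Celsr2, 0.0683 for Scrib and 0.107 for Prickle2. The log2 ratio was below 0 for 7 genes and above 0 for 3, where 58.7% of all genes tested were below 0. The median of the 10 was -0.39, and that of all genes tested was -0.14. Libraries scaled by TMM, the trimmed mean of log ratios, gave a median of -0.26 for the 10 genes and -0.0076 for all genes, and 800 lower and 552 higher calls over all genes in place of 1072 and 378. The count of 1 lower and 0 higher among the 10 was the same under TMM and when libraries were scaled by the median of gene ratios or by the upper quartile. At the adjusted p alone, however, Prickle3 was higher under each of these scalings, and Prickle2 was no longer lower under TMM and the median of ratios.

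**Figure D1:**
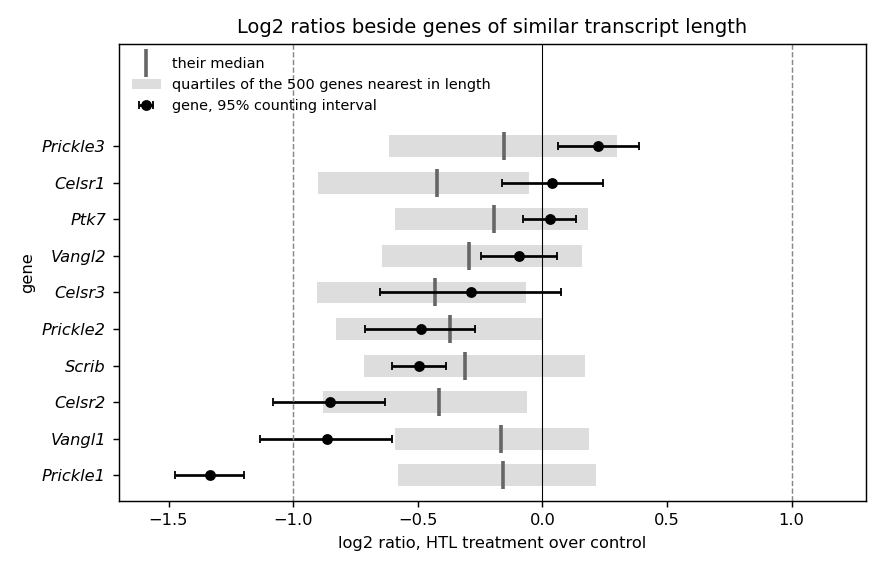
Log2 ratio of HTL treatment over control for each core gene (points, with 95% exact counting intervals), beside the quartiles (grey bars) and median (grey ticks) of the 500 genes nearest in transcript length; dashed lines mark log2 ratios of -1 and 1. Prickle1 at -1.33 is the only gene past a dashed line, and Prickle1 and Vangl1 lie below the grey bars.

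The Vangl genes encode 4-pass membrane proteins that hold Prickle at the cell face. Vangl2, the gene of the looptail mouse, had 773 control reads and 637 HTL reads, and was listed at an FPKM of 12.9 and 12.1. Its log2 ratio was -0.094 (95% interval -0.25 to 0.059), so no difference was detectable at this depth, and the sign turned under TMM (0.036) and the median of ratios (0.043). Vangl1, its paralog, had 367 and 177 reads and an FPKM of 8.34 and 4.57. Its log2 ratio of -0.86 (-1.13 to -0.60) passed the cutoff on the adjusted p but missed that of 1. The interval of Vangl1 lay wholly below that of Vangl2. Vangl1 (gene ID 229658) lies on chromosome 3, 101960624 to 102008616, minus strand, and only 8 of its 4038 annotated exonic bases overlap an exon of another gene, Gm16160 on the opposite strand. Vangl2 (gene ID 93840) lies on chromosome 1, 173931091 to 173958575, minus strand.

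The Celsr genes encode seven-pass cadherins that bridge neighbouring cells. Celsr1, which acts in neural tube closure, had 425 control reads and 384 HTL reads, with an FPKM of 3.66 and 3.76 and a log2 ratio of 0.039 (-0.16 to 0.24). Celsr2 had 508 and 247 reads, with an FPKM of 4.59 and 2.53 and a log2 ratio of -0.85 (-1.08 to -0.63). Celsr3, better known for axon tract guidance, had 154 and 111 reads, with an FPKM of 1.27 and 1.04 and a log2 ratio of -0.29 (-0.65 to 0.075). Celsr2 was the one member of the family lower at the adjusted p, and its interval did not overlap that of Celsr1. The fewest reads of any core gene stood behind Celsr3, whose interval was the widest of the 10. An annotated miRNA, AC168054.1, covers 65 exonic bases of Celsr3 on the same strand. Celsr1 (gene ID 12614) lies on chromosome 15, 85729188 to 85864207, minus strand. Celsr2 (gene ID 53883) lies on chromosome 3, 108193769 to 108218470, minus strand, and Celsr3 (gene ID 107934) on chromosome 9, 108728651 to 108755294, plus strand.

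The Prickle genes encode cytoplasmic proteins with PET and LIM domains that bind Vangl. Prickle1 had 1655 control reads and 577 HTL reads, and its FPKM was 38.8 and 15.4. It fell by 1.33 on the log2 scale (-1.47 to -1.20; adjusted p = 4.28e-90, exact binomial test), a 2.52-fold lower level in the HTL treatment library. Prickle2 had 447 and 280 reads, an FPKM of 5.29 and 3.71 and a log2 ratio of -0.49 (-0.71 to -0.27). Prickle3 had 614 and 631 reads, an FPKM of 24.6 and 28.6 and a log2 ratio of 0.22 (0.062 to 0.39), with an interval above 0 but an adjusted p of 0.0132 in the exact binomial test. The 3 intervals did not overlap, with Prickle1 lowest and Prickle3 highest. Prickle3 overlaps exons of Plp2 on the opposite strand over 246 bases, and 6.03% of the 50-base stretches of its transcripts also occur in transcripts of Plp2 or Gm6169. Plp2 had 588 and 812 reads (log2 ratio 0.65, interval 0.50 to 0.81). Whether reads were counted by strand is not given in the sources used here, so reads of Prickle3 and Plp2 in the overlap cannot be told apart. Prickle4, which is not among the 10, had 11 and 5 reads. Prickle2 (gene ID 243548) lies on chromosome 6, 92320886 to 92656139, minus strand.

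Scrib and Ptk7 stand beside these families. Scrib, a large scaffold protein with PDZ domains that binds Vangl2 and also sets apical-basal polarity, had 1829 control reads and 1142 HTL reads. Its FPKM was 31.7 and 22.6, and its log2 ratio was -0.49 (-0.60 to -0.39). Ptk7, a catalytically inactive receptor tyrosine kinase, had 1562 and 1401 reads, an FPKM of 35.2 and 35.8 and a log2 ratio of 0.029 (-0.077 to 0.13). Scrib was thus lower at the adjusted p without reaching the log2 cutoff, whereas the interval of Ptk7 held 0. Scrib (gene ID 105782) lies on chromosome 15, 75877588 to 75900214, and Ptk7 (gene ID 71461) on chromosome 17, 46701400 to 46766453, both on the minus strand.

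Ranked by FPKM, which is per length, the control library ran from Prickle1 (38.8) through Ptk7, Scrib, Prickle3, Vangl2, Vangl1, Prickle2, Celsr2 and Celsr1 to Celsr3 (1.27), a range of 30.6-fold. Among neighbours in that order, only the exact Poisson intervals of Prickle2 (4.81 to 5.80) and Celsr2 (4.20 to 5.01) overlapped. In the HTL treatment library the order began with Ptk7 (35.8), Prickle3 (28.6), Scrib (22.6) and Prickle1 (15.4), and again ended with Celsr3 (1.04). Prickle1 thus moved from rank 1 to rank 4, and Prickle3 from rank 4 to rank 2. Vangl1 (4.57), Celsr1 (3.76) and Prickle2 (3.71) were neighbours there whose intervals overlapped in turn. Prickle1 exceeded 88.4% of the genes of the table in control and 75.7% after HTL treatment, while Celsr3 exceeded 34.9% in both. All 10 genes together had 8334 control reads and 5587 HTL reads, or 805 and 614 CPM (reads scaled to the library total). That was a log2 ratio of -0.39 (-0.44 to -0.34), and -0.23 (-0.28 to -0.18) without Prickle1. By family, the summed reads had log2 ratios of -0.30 (-0.43 to -0.17) for Vangl, -0.37 (-0.50 to -0.23) for Celsr and -0.68 (-0.77 to -0.59) for Prickle. Within these sums, Vangl2 (-0.094) and Celsr1 (0.039) were near 0, while Vangl1 and Celsr2 were lower. The genes nearest in length to Celsr1, Celsr2 and Celsr3 had medians of -0.42, -0.42 and -0.43. The Prickle value rested on Prickle1: Prickle2 and Prickle3 alone had 1061 control reads and 911 HTL reads, a log2 ratio of -0.034 (-0.16 to 0.095).

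**Figure D2:**
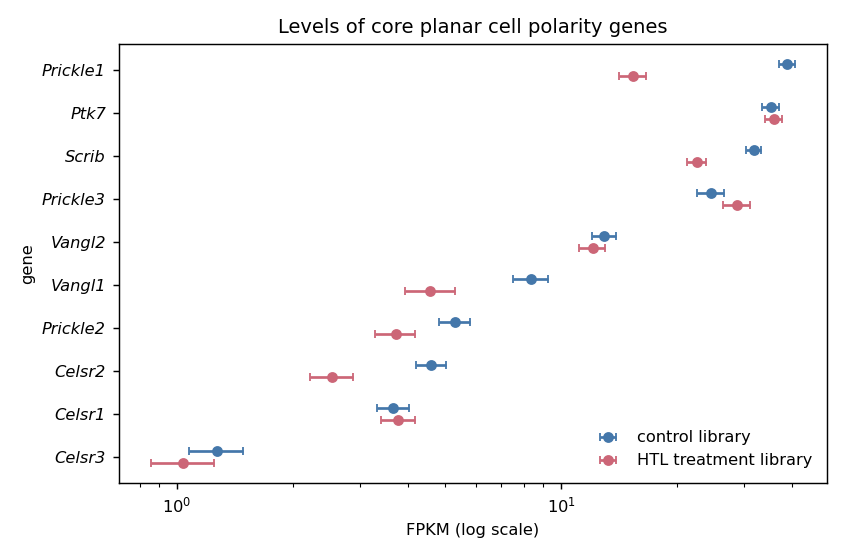
FPKM (log scale) of each core gene in the control and HTL treatment libraries, with 95% exact Poisson counting intervals. Prickle1 has the highest level in the control library (38.8) and falls to 15.4, below Ptk7, Prickle3 and Scrib, while the points of Vangl2, Celsr1 and Ptk7 nearly coincide.

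How reads were divided within each family was compared next, since a share within a library does not depend on how the libraries are scaled to each other. Prickle1 took 60.9% (exact Clopper-Pearson 95% interval 59.1 to 62.8) of the 2716 Prickle reads in the control library, and 38.8% (36.3 to 41.3) of 1488 in the HTL treatment library. The share of Prickle3 was 22.6% (21.0 to 24.2) and 42.4% (39.9 to 45.0). Prickle2 had 16.5% and 18.8%, with overlapping intervals. Prickle1 was therefore the most abundant Prickle gene by reads in control. After HTL treatment Prickle3 had the most reads, but its interval overlapped that of Prickle1. Some reads of Prickle3 also cannot be told from those of Plp2. Per length, the FPKM of Prickle1 was 1.58 times that of Prickle3 in the control and 0.536 times in the HTL treatment library. Of the Vangl reads, Vangl1 had 32.2% (29.5 to 35.0) of 1140 in the control and 21.7% (19.0 to 24.7) of 814 in the HTL treatment library. The remainder was Vangl2, whose FPKM was 1.55 and 2.64 times that of Vangl1. Celsr2 had 46.7% (43.7 to 49.8) of 1087 Celsr reads in the control and 33.3% (29.9 to 36.8) of 742 in the HTL treatment library. Celsr1 had 39.1% (36.2 to 42.1) and 51.8% (48.1 to 55.4), so the 2 genes exchanged rank. Celsr3 stayed near 14.2% and 15.0%, with overlapping intervals. The same gene was the most abundant in each family by FPKM as by reads, in both libraries.

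**Figure D3:**
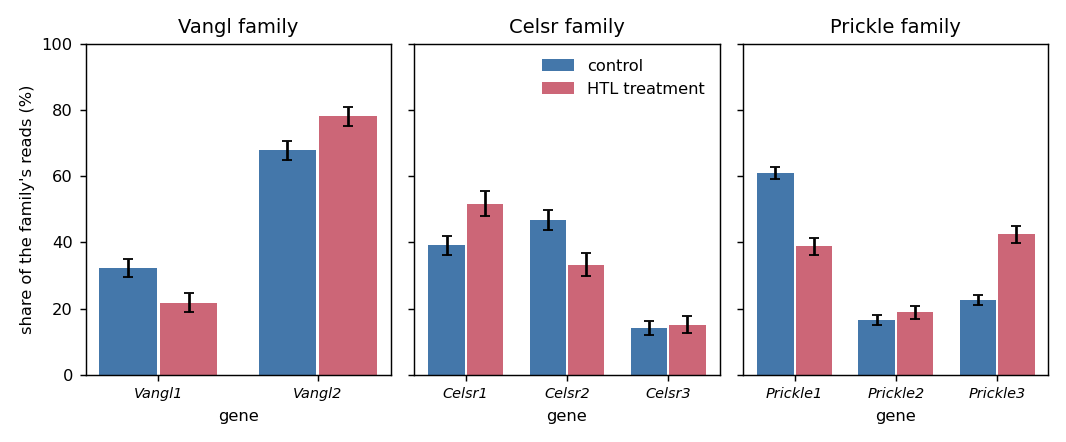
Share of each family's reads (%) taken by each gene in the control and HTL treatment libraries, with exact 95% Clopper-Pearson intervals. Prickle1 (60.9% to 38.8%) and Celsr2 (46.7% to 33.3%) lose the first place in their families, and Vangl1 drops from 32.2% to 21.7%. In the HTL treatment library the intervals of Prickle1 and Prickle3 overlap, while those of Celsr1 and Celsr2 do not.

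Most of the core genes have long transcripts, and log2 ratios in these libraries were lower for longer transcripts. The median log2 ratio was 0.14 for the shortest and -0.38 for the longest of 10 bins with nearly equal numbers of genes, and Celsr1, Celsr2, Celsr3 and Prickle2 all lie in the longest. Each gene was therefore set beside the 500 tested genes nearest to it in transcript length. Relative to the median of these neighbours, 5 of the 10 genes were lower and 5 higher, and the median of the 10 was 0.012 in place of -0.39. Prickle1 (4085 bases) remained the lowest, 1.18 below its neighbours on the log2 scale, and only 6.4% of them had a lower log2 ratio. Vangl1 (4214 bases) was lower by 0.70, with 17% of its neighbours lower still. Celsr2 (10543 bases) had a relative value of -0.44, where its neighbours had a median of -0.42, and 25.8% of them were lower. Celsr1 (11050 bases) was 0.46 above its neighbours and exceeded 80% of them, more than any other core gene. Prickle3 (2410 bases) was 0.38 above, Ptk7 (4255 bases) 0.22, Vangl2 (5714 bases) 0.20 and Celsr3 (11558 bases) 0.14. Scrib (5491 bases) and Prickle2 (8159 bases) had relative values of -0.18 and -0.12, inside the quartiles of their neighbours. The counting interval lay below the neighbours' median for 4 genes (Prickle1, Vangl1, Celsr2 and Scrib) and above it for 4 (Celsr1, Prickle3, Ptk7 and Vangl2). The share of all genes tested with such intervals was not computed, and the intervals narrow as reads rise. Of these genes, only Prickle1 and Vangl1 lay below the quartiles of their neighbours, and only Celsr1 above them. These are descriptions with no test.

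**Figure D4:**
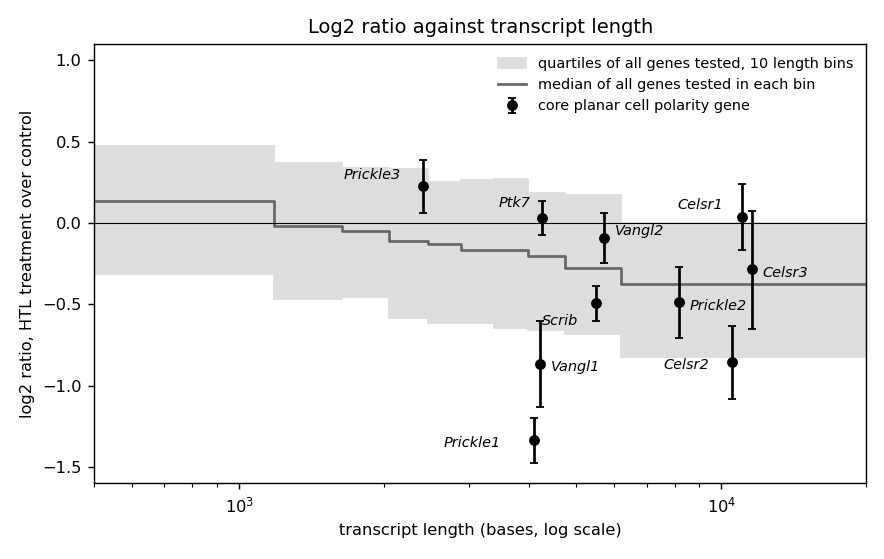
Log2 ratio of HTL treatment over control against transcript length in bases (log scale) for the core genes, with 95% counting intervals, over the quartiles (grey) and median (line) of all genes tested in 10 bins of length. The line runs from 0.14 in the shortest to -0.38 in the longest bin, and Prickle1 at -1.33, Vangl1 at -0.86 and, narrowly, Celsr2 at -0.85 lie below the grey band at their length, while Celsr1 at 0.039 lies above it.

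The pathway reaches beyond the core, and 6 further lists of its genes were arranged by role. Of their 68 genes, 65 were tested. Wnt7b had too few reads (2 and 7), and Fat2 and Dchs2 were not found by symbol among the genes with deposited values. Past both cutoffs 6 of the 65 were lower and 1 higher, beside the 7.98% and 2.81% of all genes tested. TMM scaling gave 5 lower and 2 higher. All 7 calls, those on Mink1, Fjx1 and Dlg3 included, were lost in the edgeR exact test at an assumed coefficient of biological variation of 0.2. At the adjusted p alone 21 were lower and 12 higher, beside 24.1% and 14.5% of all genes tested. The median log2 ratio of the 65 genes was -0.20, and 0.045 relative to neighbours in length.

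Frizzled receptors and the Dishevelled adaptors form the face opposite to Vangl and Prickle. Their list of 10 genes, which also holds Ankrd6 and Prickle4, had a median of -0.47, or -0.24 relative to neighbours in length. Past both cutoffs 2 of them were lower and 0 higher, beside 7.98% and 2.81% of all genes tested. At the adjusted p alone 6 were lower and 0 higher, beside 24.1% and 14.5% of all genes tested. Fzd1 had 126 control reads and 46 HTL reads (log2 ratio -1.26, interval -1.79 to -0.77), and its call was lost on the scale of log2(FPKM + 1), with a difference of -0.81. Fzd2 had 366 and 147 reads (log2 ratio -1.13, interval -1.42 to -0.85), which missed the cutoff of 1 when scaled by TMM (-0.998), by the median of ratios (-0.99), or as log2(FPKM + 1), with a difference of -0.98. The receptors best known for tissue polarity in the mouse, Fzd3 and Fzd6, had log2 ratios of -0.25 (-0.54 to 0.039) and 0.35 (0.088 to 0.61). Dvl1, Dvl2 and Dvl3 had log2 ratios of -0.90, -0.40 and -0.38, all with intervals below 0, as had 36.2% of all genes tested. Relative to neighbours in length they were -0.68, -0.19 and -0.18. Dvl3 did not pass the adjusted p (0.00292, exact binomial test).

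Among 9 tested Wnt ligands and co-receptors 0 were past both cutoffs, where 7.98% of all genes tested were lower and 2.81% higher. At the adjusted p alone 2 were lower and 0 higher, near the 24.1% and 14.5% of all genes tested, and the median was -0.15, or 0.027 relative to neighbours in length. The ligands were sparse, with Wnt5a at 27 and 10 reads, Wnt5b at 36 and 34, and Wnt11 at 20 and 18. Of the co-receptors, Lrp6 had 1625 and 1022 reads with a log2 ratio of -0.48 (-0.60 to -0.37), while Ror2, a receptor of Wnt5a that acts on Vangl2, had 422 and 335 reads and one of -0.15 (-0.36 to 0.063). Of the 14 effectors 0 were past both cutoffs, against the same 7.98% and 2.81%, and their median was -0.18, or 0.040 relative to neighbours in length. At the adjusted p alone 3 were lower and 3 higher, near the 24.1% and 14.5% of all genes tested. Rock2, a kinase that acts on myosin, had 954 and 433 reads with a log2 ratio of -0.95 (-1.12 to -0.79). Rac1 and Cdc42, small GTPases that act on the actin cytoskeleton, were among the higher, with log2 ratios of 0.35 (0.27 to 0.43) and 0.17 (0.078 to 0.26). The cilium-linked effectors Intu, Fuz and Wdpcp had log2 ratios of -0.31 (-0.61 to -0.017), -0.34 (-0.62 to -0.052) and 0.48 (-0.31 to 1.29), none past the adjusted p.

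In the list of trafficking genes, kinases and turnover factors of the core proteins, 1 of 12 was lower past both cutoffs and 0 were higher, beside 7.98% and 2.81% of all genes tested. At the adjusted p alone 2 were lower and 4 higher, beside 24.1% and 14.5% of all genes tested. The median was 0.12, or 0.27 relative to neighbours in length. Mink1, a Ste20-family kinase known to phosphorylate Prickle, had 974 control reads and 338 HTL reads (log2 ratio -1.34, interval -1.52 to -1.16). Csnk1d, a casein kinase that acts on core proteins, had 2262 and 3668 reads with a log2 ratio of 0.88 (0.81 to 0.96). It missed the cutoff here and passed it under TMM (1.01) and the median of ratios (1.02). Sec24b, which carries Vangl2 out of the endoplasmic reticulum, had 834 and 601 reads with a log2 ratio of -0.29 (-0.44 to -0.13).

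Fat and Dachsous genes form a parallel polarity system of giant cadherins. Of 5 tested, 2 were lower past both cutoffs and 0 higher, beside 7.98% and 2.81% of all genes tested. At the adjusted p alone 3 were lower and 0 higher, beside 24.1% and 14.5% of all genes tested. Their median was -0.50, but -0.085 relative to neighbours in length. Fjx1, the homolog of the fly kinase four-jointed, had 119 and 41 reads (log2 ratio -1.34, interval -1.90 to -0.83). Fat4 had 78 and 28 reads (log2 ratio -1.28, interval -1.97 to -0.65), at an FPKM of only 0.46 and 0.19. The call on Fat4 was lost on the scale of log2(FPKM + 1), with a difference of -0.30, and at an assumed coefficient of biological variation of 0.1. Fat1, the most abundant of the 5, had 4642 and 3500 reads with a log2 ratio of -0.22. In the Scribble module and Par complex, which set apical-basal polarity, 1 of 15 genes was lower and 1 higher past both cutoffs, beside 7.98% and 2.81% of all genes tested. The median was -0.0048, or 0.35 relative to neighbours in length. Dlg3, a PDZ scaffold, had 549 and 216 reads (log2 ratio -1.16, interval -1.39 to -0.93). Pard6b, an adaptor of the Par complex, had 213 and 385 reads (log2 ratio 1.04, interval 0.79 to 1.29), and its call was lost on the scale of log2(FPKM + 1), with a difference of 0.93.

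**Figure D5:**
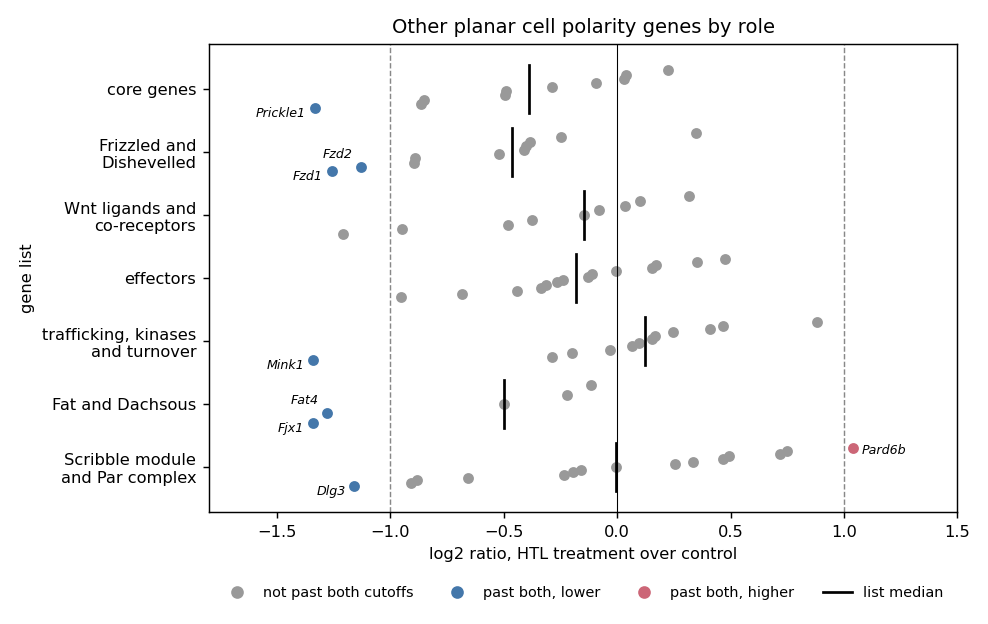
Log2 ratio of HTL treatment over control for the 10 core genes and the 65 tested genes of the other lists (points), with list medians (black lines) and the log2 cutoffs of -1 and 1 (dashed). Genes past both cutoffs are named and coloured, lower for Prickle1, Fzd1, Fzd2, Mink1, Fat4, Fjx1 and Dlg3, and higher for Pard6b. The Frizzled and Dishevelled list (-0.47) and the Fat and Dachsous list (-0.50) have the lowest medians, which are -0.24 and -0.085 relative to genes of similar length.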

How the data were processed

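RNA from 1 control and 1 HTL-treated culture of NE4C was sequenced. Per the labels, libraries were made with a TruSeq kit and run by BGISEQ protocols, and mm9 is the genome build named. Clean tags were mapped to the mouse genome and genes, and reads per gene were estimated with RSEM (spelled RESM in the study's methods). The mapper, versions, annotation and use of strand are not given in the sources used here. The authors deposited estimated counts, not normalized, and FPKM values, which they scaled to transcript length and library size. Their table also holds their own log2 ratios, p-values and false discovery rates, which were not used. The authors gave transcript lengths in bases.

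Estimated counts were rounded. The 13442 genes whose reads in both libraries summed to 10 or more were tested (3361 were left out) by a two-sided exact binomial test against the library totals (SciPy 1.17.1), with Benjamini-Hochberg adjustment over all genes tested. Calls needed an adjusted p no higher than 0.001 and a log2 ratio of 1 or more in either direction. Log2 ratios had 0.5 read added, in proportion to library totals. The 95% intervals are exact Clopper-Pearson intervals of a binomial share, and without molecular identifiers, reads cannot be taken as separate molecules. Vangl2 had 773.08 and 636.64 estimated reads, and the other 9 genes had whole numbers. Alternatives used edgeR 4.0.16 and DESeq2 1.42.0 scaling and the edgeR exact test at assumed coefficients of biological variation. The quasi-likelihood test needs replicates and was not run. The test was checked on simulated counts.

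The genes, lists and tests were chosen with earlier results of these data known. Named genes are the 10 core genes and, in each other list, those called or, if none was, the largest absolute log2 ratio with a mean of at least 50 reads; further genes in the text were chosen after their values were seen, as was the comparison of 50-base stretches with GENCODE M1 transcripts. Planned protein comparisons were not run.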

Additional observations from a re-analysis of the deposited data

How the results depend on the processing

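No paired analysis was possible because the study had 1 control and 1 HTL library, which also leaves no library to drop. Of the 10 core genes, 1 was called under each scaling, filter and added count tried and on the scale of FPKM + 1. The count was 0 in the edgeR exact test when a coefficient of biological variation of 0.2 or 0.4 was assumed, 5 with no cutoff on the log2 ratio and 3 with a log2 cutoff of 0.5. For the 65 genes of the other lists, 7 calls became 3 on the scale of FPKM + 1 (Fzd1, Fzd2, Fat4 and Pard6b were lost), 0 at a coefficient of variation of 0.2 or 0.4, 33 with no log2 cutoff and 15 with a cutoff of 0.5. Over all genes, 1072 lower and 378 higher calls became 575 and 241 on the scale of FPKM + 1, 82 and 38 at a coefficient of variation of 0.2, 5 and 1 at 0.4, 3240 and 1955 with no log2 cutoff, and 2441 and 1197 with a cutoff of 0.5. A looser cutoff admits more genes by construction, and the added 1 shrinks ratios of genes with a low FPKM. The variation between cultures, on which the calls at 0.2 and 0.4 rest, cannot be measured in these libraries. Vangl2 turned from -0.094 to 0.036 under TMM and 0.043 under the median of ratios, because these scalings raise all log2 ratios by about as much. No other core gene changed sign under the alternatives run, and Prickle1 ran from -1.34 to -1.20. The median without Prickle1, an alternative chosen after seeing the data, was -0.29, and the Prickle sum without it, chosen likewise, had a log2 ratio of -0.034 in place of -0.68. Shares of FPKM in place of reads moved the change in the share of Prickle3 from 19.8 to 24.3 percentage points and that of Prickle2 from 2.36 to 0.072. Depth limits the sparse genes most: a count of 3 reads is 0.29 CPM in the control and 0.33 CPM in the HTL treatment library.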

Other observations

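Among the apical-basal genes listed as Scribble module and Par complex, at the adjusted p of the exact binomial test 5 of 15 were lower and 5 higher, beside 24.1% and 14.5% of all genes tested. Lower besides Dlg3 were Llgl1 with 613 control reads and 292 HTL reads (log2 ratio -0.88, 95% interval -1.09 to -0.68), Dlg4 (-0.66, interval -0.91 to -0.41), Prkci (-0.24, interval -0.35 to -0.12) and Git1 (-0.20, interval -0.30 to -0.093). The values of Prkci and Git1 were smaller under TMM (-0.11 and -0.065), and relative to neighbours in length they were -0.0055 and -0.017. Higher besides Pard6b were Pard6g with 96 and 139 reads (0.72, interval 0.33 to 1.11), Llgl2 (0.49, interval 0.24 to 0.75), Pard3 (0.46, interval 0.37 to 0.56) and Arhgef7 (0.34, interval 0.19 to 0.48). The paralogs Llgl1 and Llgl2, scaffolds of the basolateral side, thus lay on opposite sides of 0. The other 5 did not pass, with log2 ratios of 0.75 for Pard6a (39 and 58 reads), 0.26 for Prkcz, -0.0048 for Dlg5, -0.16 for Dlg1 and -0.91 for Dlg2.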
